A study of Mus musculus with 71 samples.

Results

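Heme is the iron porphyrin of hemoglobin. Its synthesis starts and ends in mitochondria: aminolevulinate synthase joins glycine with succinyl-CoA, cytosolic enzymes build the porphyrin ring, and ferrochelatase inserts the iron. The first step has a housekeeping enzyme, Alas1, and an erythroid enzyme, Alas2, which red cell precursors use to supply hemoglobin. The 9 genes described were chosen by symbol: Alas1, Alas2, the glycine carrier Slc25a38, Alad, Uros, Urod, Cpox, Ppox and Fech. All 9 were among the 10508 genes of the deposited vst table and the 55416 genes of the count table.

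RNA of terminal whole blood was sequenced from 71 mice. The paper describes fewer mice than these, female Balb/c AnNRj and 6 weeks old at inclusion. It does not describe D06 or BPR21 mice, so for them the same sex, strain and age are assumed. The paper's other treatment group, given a galectin-3 inhibitor, is not named in the labels. Control mice (n = 11) received PBS, and HOCl mice (n = 12) received intradermal hypochlorous acid on 5 days a week for 6 weeks, a chemical model of systemic sclerosis. The 4 other groups of 12 mice received HOCl too, with E07, D11, D06 or BPR21 by their labels. E07 and D11 are antibodies against galectin-3, given subcutaneously at 20 mg/kg every 5 days. What D06 and BPR21 are, and at which dose they were given, is not stated in the sources used here. The characteristics field of the control mice also reads HOCL, so groups were taken from the sample titles. The groups that the paper describes were kept in separate cages, so cage and group cannot be told apart. Each library was made with globin depletion, and totals ran from 11932855 to 15948972 counts per mouse. For HOCl mouse 8 raw counts were deposited without vst values, which left 11 HOCl mice in every comparison of vst values.

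Positions of the genes are those of the reference annotation on GRCm39. Alas2 is at chrX:149330371-149353634, Alas1 at chr9:106110642-106135734 and Slc25a38 at chr9:119939387-119955157. Alad is at chr4:62423283-62438587, Uros at chr7:133285987-133311801 and Urod at chr4:116844840-116851610. Cpox is at chr16:58490414-58537999 and Ppox at chr1:171100969-171109385, and the position of Fech is not given here. On the opposite strand, exons of Zswim5 cover 57.9% of the Urod exon bases, exons of B4galt3 cover 40.8% of those of Ppox, and exons of 4930500F10Rik cover 26.2% of those of Alas1. The libraries were strand-specific, but the strand setting of the counting is not given in the sources used here, so reads of these partners may not be told apart.

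The upstream sequence is shown for Alas2 and Urod, which are among the 3 genes with the largest vst differences between HOCl and control mice. The third, Fech, is named only. The bases are those from 250 to 51 before the RefSeq start site, read 5′ to 3′ along the gene, at chrX:150547167-150547366 on the plus strand for Alas2 and at chr4:116994464-116994663 on the minus strand for Urod (GRCm38.p6). Capitals mark words of the kind bound by GATA factors, which include transcription factors of red cell precursors. The words searched, on both strands, were GATA with A or T before it and A or G after it.
Alas2: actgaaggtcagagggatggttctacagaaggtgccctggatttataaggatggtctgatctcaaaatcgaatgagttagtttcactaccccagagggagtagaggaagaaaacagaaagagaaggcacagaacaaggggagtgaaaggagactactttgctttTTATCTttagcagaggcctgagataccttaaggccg
Urod: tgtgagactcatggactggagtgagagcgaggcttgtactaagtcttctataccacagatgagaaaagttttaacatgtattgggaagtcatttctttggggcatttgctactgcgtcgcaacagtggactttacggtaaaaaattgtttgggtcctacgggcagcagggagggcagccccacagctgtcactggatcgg
Alas2 holds 1 such word, TTATCT, which starts 86 bases before the start site, and Urod holds 0. The 0 says only that these letters are not in this window. Such a word stood in 23.1% of the 32851 RefSeq promoter windows of the same 200 bases.

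Alas2 had more counts than any other gene of the count table over all mice, 6.15% of the pooled counts, and was the most counted gene in 60 of 71 mice. Per kilobase of exon, Alas2 was the highest of the 9 genes in 71 of 71 mice, with a median of 22769 CPM (library-scaled counts) per kilobase. Fech followed in 71 of 71 mice with a median of 541, and Urod came after Fech in 71 of 71 mice with a median of 28.2. The order of these 3 genes was thus the same in every library. The other medians were 6.36 CPM per kilobase for Alad, 4.92 for Slc25a38, 4.23 for Ppox, 1.90 for Uros, 1.28 for Alas1 and 0.847 for Cpox. With the longest coding transcript in place of all exons, Alad came after Slc25a38 and Ppox. Over all exons, Cpox was the lowest of the 9 in 54 of 71 mice.

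The first question was what the HOCl injections changed. Of the 9 genes, 5 rose in HOCl mice against control mice: Alas2, Alad, Uros, Urod and Fech. Differences in vst values were tested with limma, and a gene was called changed at an adjusted p of at most 0.05 and a fold of at least 1.3. Of all 10508 genes, 4.79% were called higher. By edgeR 4 of the 9 were called, without Uros, and by DESeq2 6, with Ppox added. Of all 10501 genes, edgeR called 483 higher and DESeq2 600. The median log2 fold change was 0.51 over the 9 genes and -0.02 over all genes. Alas1, Slc25a38, Cpox and Ppox did not pass. With values scaled by library totals, limma called 3 of the 9 higher, Alas2, Urod and Fech, and 1, Alas1, lower. Of all 10501 genes, that scaling called 317 higher and 5141 lower. In bulk blood, more cells of a type and more RNA per cell cannot be told apart. The plot of vst values shows each gene in each mouse.

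**Figure D1:**
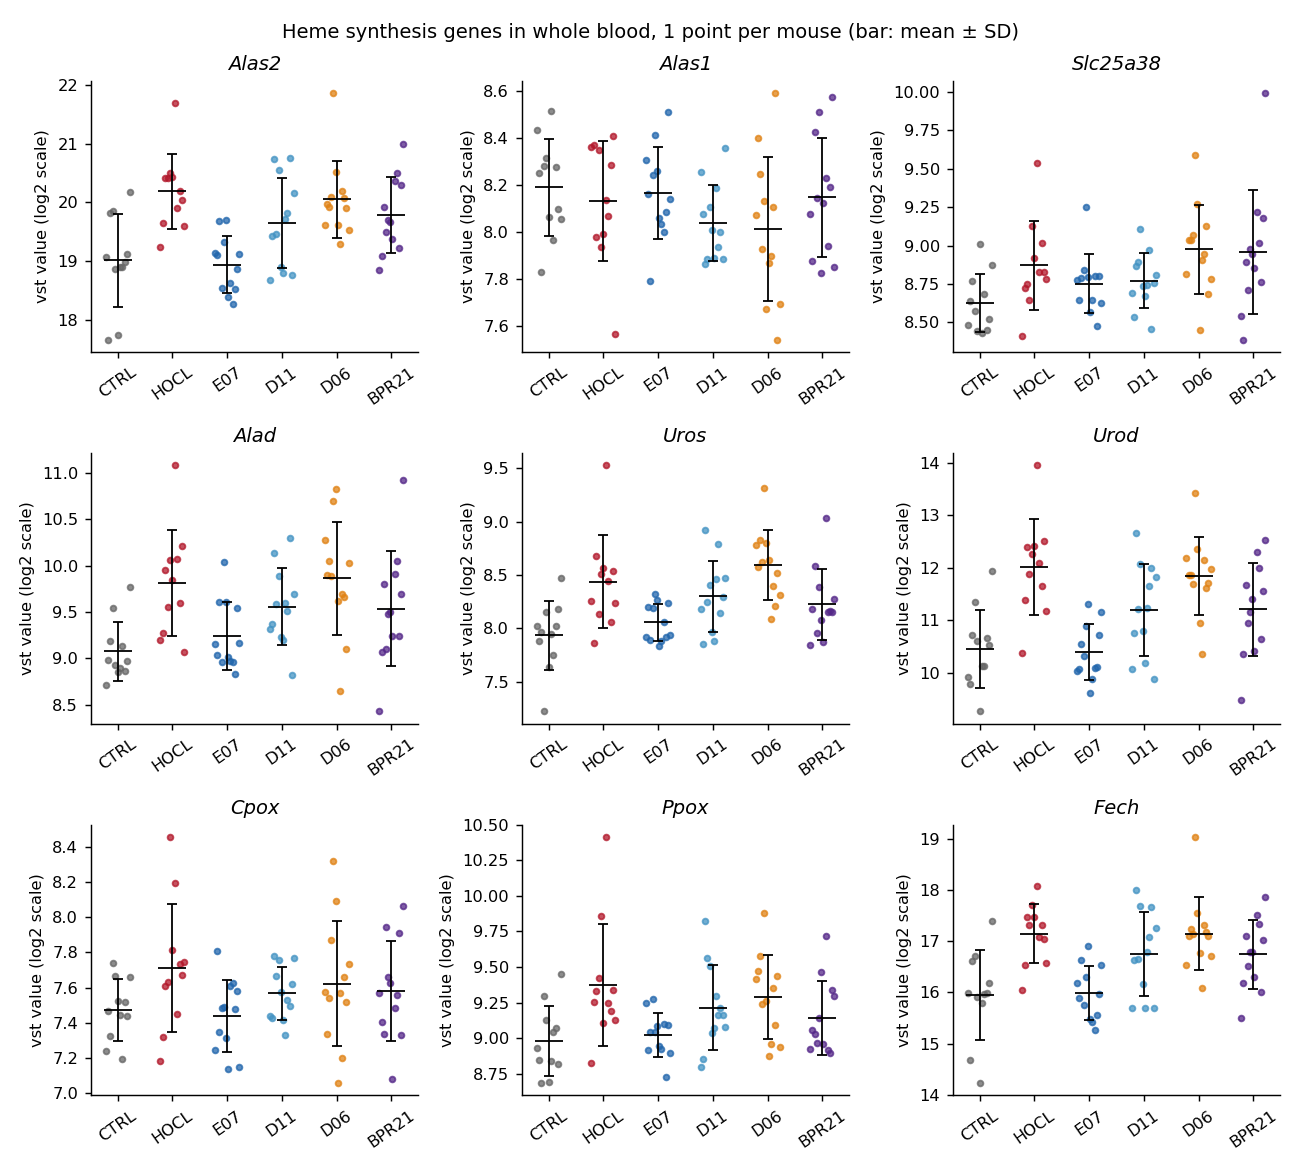
Deposited vst values (log2 scale, y axis) of the 9 heme synthesis genes in each mouse, by group (x axis), with the mean and SD as black bars, 11 control and 11 HOCl mice and 12 mice in each other group. Alas2, Urod and Fech sit higher in HOCl and D06 mice than in control and E07 mice, with overlap, and the Alas1 means lie between 8.01 and 8.19 on this scaling.

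Alas2 catalyses the rate-limiting step of erythroid heme synthesis. Its vst values ran from 17.66 to 20.18 with a median of 18.98 in control mice, from 19.24 to 21.69 with a median of 20.19 in HOCl mice and from 18.27 to 19.70 with a median of 18.98 in E07 mice. The Alas2 values ran from 18.68 to 20.75 with a median of 19.59 in D11 mice, from 19.28 to 21.86 with a median of 19.95 in D06 mice and from 18.84 to 20.99 with a median of 19.68 in BPR21 mice. All 11 HOCl mice were above the control median, 6 were above every control mouse, and the groups overlapped. The mean was 19.01 ± 0.79 in control mice (SD, n = 11) and 20.19 ± 0.64 in HOCl mice (SD, n = 11), a log2 fold change of 1.18 ± 0.27 (SE, limma, adjusted p = 0.0100), or 2.26-fold. In E07 mice 9 of 12 values lay below every HOCl mouse. E07 mice differed from HOCl mice by -1.25 ± 0.21 (SE, limma, adjusted p = 2.50e-04), a level 2.37-fold lower. In D11, D06 and BPR21 mice the log2 differences from HOCl mice were -0.54 ± 0.27 (SE, limma, adjusted p = 0.357), -0.14 ± 0.24 (SE, limma, adjusted p = 0.860) and -0.40 ± 0.24 (SE, limma, adjusted p = 0.476), and none passed. By mean, the order from low to high was E07, control, D11, BPR21, D06 and HOCl, and no 2 neighbours in it differed by the test. The highest HOCl value, 21.69, came from HOCl mouse 7, and the highest D06 value, 21.86, from D06 mouse 5. These libraries also had the lowest DESeq2 size factors of their groups, 0.460 and 0.413. The same held for the highest control and BPR21 values, from control mouse 12 and BPR21 mouse 12, at 0.732 and 0.585. It did not hold for the highest E07 and D11 values. Whether the size factors bear on the values was not tested. With any single mouse left out, the Alas2 difference of HOCl from control mice was at least 1.03 and stayed called.

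Urod, which decarboxylates uroporphyrinogen, had the largest vst difference of the 9 genes in HOCl against control and in E07 against HOCl mice. Its vst values ran from 9.27 to 11.93 with a median of 10.53 in control mice, from 10.38 to 13.95 with a median of 12.09 in HOCl mice and from 9.61 to 11.32 with a median of 10.21 in E07 mice. The Urod values ran from 9.89 to 12.67 with a median of 11.22 in D11 mice, from 10.37 to 13.42 with a median of 11.87 in D06 mice and from 9.48 to 12.52 with a median of 11.29 in BPR21 mice. Of the HOCl mice, 10 of 11 were above the control median and 6 were above every control mouse. HOCl mice averaged 12.01 ± 0.91 (SD, n = 11) and control mice 10.46 ± 0.74 (SD, n = 11), a log2 fold change of 1.55 ± 0.31 (SE, limma, adjusted p = 0.00506), or 2.93-fold. The level in E07 mice was 3.05-fold lower than in HOCl mice, with a log2 difference of -1.61 ± 0.27 (SE, limma, adjusted p = 2.56e-04). All 12 E07 mice were below the HOCl median. D11 and BPR21 mice lay between these groups and overlapped both, with log2 differences from HOCl of -0.81 ± 0.33 (SE, limma, adjusted p = 0.275) and -0.80 ± 0.34 (SE, limma, adjusted p = 0.276) that did not pass, and D06 mice differed by -0.16 ± 0.30 (SE, limma, adjusted p = 0.871).

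Fech, ferrochelatase, inserts the iron into protoporphyrin in the last step. Its vst values ran from 14.23 to 17.40 with a median of 15.99 in control mice, from 16.05 to 18.08 with a median of 17.31 in HOCl mice and from 15.27 to 16.91 with a median of 15.93 in E07 mice. The Fech values ran from 15.69 to 18.01 with a median of 16.72 in D11 mice, from 16.08 to 19.03 with a median of 17.12 in D06 mice and from 15.51 to 17.85 with a median of 16.79 in BPR21 mice. All 11 HOCl mice were above the control median, and 4 were above every control mouse. The log2 fold change of HOCl against control mice was 1.20 ± 0.28 (SE, limma, adjusted p = 0.0110), or 2.30-fold. E07 mice differed from HOCl mice by -1.16 ± 0.21 (SE, limma, adjusted p = 4.05e-04), and 7 of 12 lay below every HOCl mouse. The D11, D06 and BPR21 groups differed from HOCl by -0.40 ± 0.27 (SE, limma, adjusted p = 0.515), -0.00 ± 0.24 (SE, limma, adjusted p = 0.995) and -0.41 ± 0.24 (SE, limma, adjusted p = 0.452), and none passed. Fech was the gene in which neighbours in the order of group means could be told apart, E07 mice from the next higher group, BPR21, by 0.75 ± 0.22 (SE, limma, adjusted p = 0.0340). This was 1 of 45 neighbouring pairs over the 9 genes.

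Alad, which condenses aminolevulinate to porphobilinogen, and Uros, which closes the ring to uroporphyrinogen III, changed less on vst values. The lowest vst value of all genes was 6.06, and the vst scale shrinks differences of genes with few counts. Sizes on it are therefore not strictly comparable between genes such as Uros and Alas2. The vst values of Alad ran from 8.71 to 9.76 with a median of 8.97 in control mice, from 9.07 to 11.08 with a median of 9.84 in HOCl mice and from 8.83 to 10.04 with a median of 9.10 in E07 mice. The Alad values ran from 8.82 to 10.30 with a median of 9.55 in D11 mice, from 8.65 to 10.83 with a median of 9.89 in D06 mice and from 8.43 to 10.92 with a median of 9.49 in BPR21 mice. The Alad difference of HOCl from control mice was 0.73 ± 0.18 (SE, limma, adjusted p = 0.0131), with all 11 HOCl mice above the control median. E07 mice had less Alad than HOCl mice, by -0.57 ± 0.18 (SE, limma, adjusted p = 0.0308). The vst values of Uros ran from 7.22 to 8.47 with a median of 7.97 in control mice, from 7.86 to 9.53 with a median of 8.44 in HOCl mice and from 7.84 to 8.32 with a median of 8.00 in E07 mice. The Uros values ran from 7.86 to 8.92 with a median of 8.27 in D11 mice, from 8.08 to 9.31 with a median of 8.60 in D06 mice and from 7.84 to 9.03 with a median of 8.16 in BPR21 mice. D06 mice stood highest in Uros, 8 of 12 above every control mouse. The Uros difference of HOCl from control mice was 0.51 ± 0.15 (SE, limma, adjusted p = 0.0463), and that of E07 from HOCl mice was -0.38 ± 0.13 (SE, limma, adjusted p = 0.0416). By edgeR Uros was not called in either comparison. Both Uros calls were near the threshold: the first was lost in 15 of 22 fits that left out 1 mouse and the second in 13 of 23. The first was lost without control mouse 1, 2, 4, 5, 7, 8, 9, 10 or 11 or HOCl mouse 3, 5, 6, 7, 9 or 11. The second was lost without any of the same 6 HOCl mice or E07 mouse 1, 3, 7, 8, 9, 10 or 12. The Alad call of E07 against HOCl mice was lost in 5 of 23 such fits, without HOCl mouse 11 or E07 mouse 4, 7, 9 or 10.

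Alas1, the housekeeping synthase, did not pass in any of the 15 pairs of groups. Its vst values ran from 7.83 to 8.52 with a median of 8.25 in control mice, from 7.57 to 8.41 with a median of 8.14 in HOCl mice and from 7.79 to 8.51 with a median of 8.15 in E07 mice. The Alas1 values ran from 7.86 to 8.36 with a median of 8.01 in D11 mice, from 7.54 to 8.59 with a median of 8.00 in D06 mice and from 7.82 to 8.57 with a median of 8.13 in BPR21 mice. Every pair of groups overlapped. Its log2 difference was -0.06 ± 0.10 (SE, limma, adjusted p = 0.826) for HOCl against control mice and 0.04 ± 0.09 (SE, limma, adjusted p = 0.845) for E07 against HOCl mice. Ppox, which oxidizes protoporphyrinogen, differed by 0.39 ± 0.14 (SE, limma, adjusted p = 0.10) and -0.35 ± 0.12 (SE, limma, adjusted p = 0.0530) in these comparisons. Cpox, the step before Ppox, had the lowest median level per kilobase and differed by 0.24 ± 0.12 (SE, limma, adjusted p = 0.289) and -0.27 ± 0.11 (SE, limma, adjusted p = 0.117). For Slc25a38, which carries glycine into mitochondria, the differences were 0.25 ± 0.10 (SE, limma, adjusted p = 0.194) and -0.12 ± 0.10 (SE, limma, adjusted p = 0.468). By edgeR the Cpox log2 fold changes were 0.48 and -0.52, and they did not pass either.

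**Figure D2:**
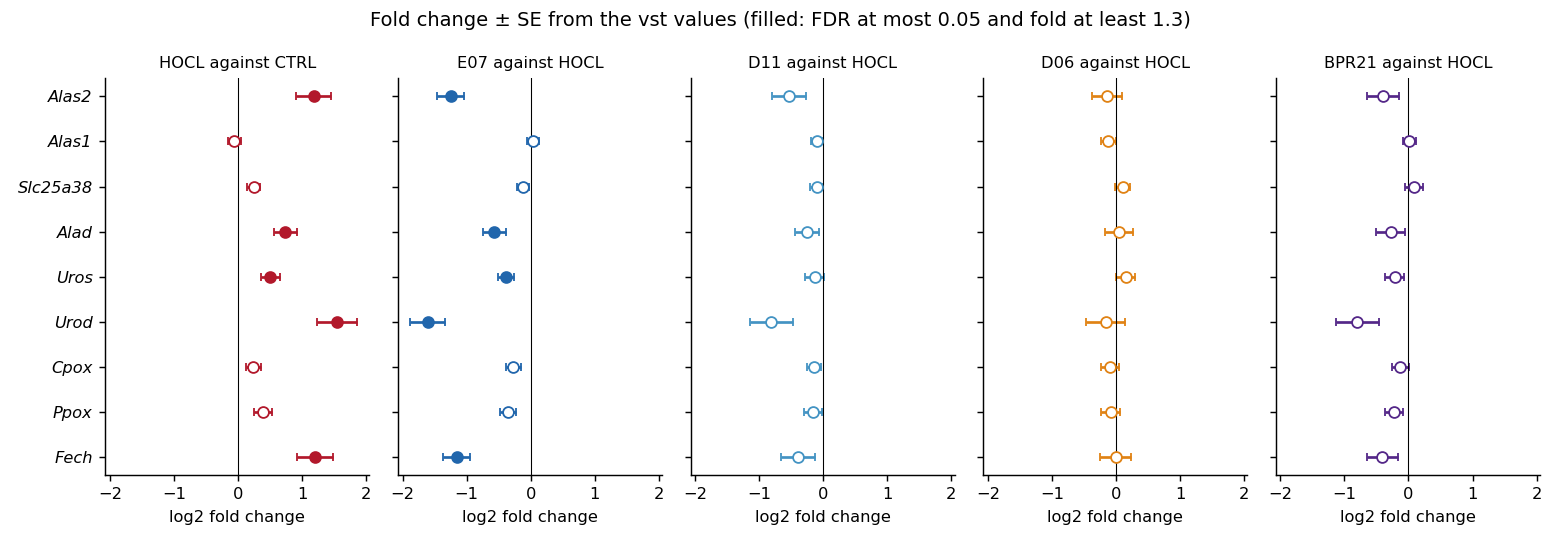
Log2 fold changes (x axis) with their SE for the 9 genes (y axis, in the order of the pathway) in HOCl against control mice and in the 4 treated groups against HOCl mice, from limma on vst values. Filled points passed both thresholds, which were 5 genes in the first and in the E07 panel and 0 in the panels of D11, D06 and BPR21.

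The second question was which treated groups differed from untreated HOCl mice. In E07 mice 5 of the 9 genes fell, Alas2, Alad, Uros, Urod and Fech, while 7.01% of all genes were called lower. By edgeR 5 were called, with Ppox in place of Uros, and by DESeq2 6. Of all 10501 genes, edgeR called 835 lower and DESeq2 988. This comparison shares its HOCl mice with the first, so the calls are not independent. The median log2 fold change was -0.38 over the 9 genes and 0.02 over all genes. With values scaled by library totals, limma called 3 of the 9 lower and 2 higher. Of all 10501 genes, that scaling called 310 lower and 6472 higher. In D11 mice limma called 0 of the 9 (0.0571% of all genes), with 1 at an unadjusted p under 0.05 and 0 by edgeR or DESeq2. In D06 mice limma called 0 (0.133% of all genes), with 0 at an unadjusted p under 0.05 and 0 by edgeR or DESeq2. In BPR21 mice limma called 0 (0.638% of all genes), with 1 at an unadjusted p under 0.05 and 0 by edgeR or DESeq2. Of all 10508 genes, 1483, 1338 and 1474 had an unadjusted p under 0.05 (limma) in D11, D06 and BPR21 mice. Of all 10501 genes, edgeR called 43, 56 and 90 in these groups, and DESeq2 151, 158 and 255. These counts do not show that D11, D06 or BPR21 mice were like HOCl mice.

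Treated mice were also compared with control mice. In E07 mice limma called 0 of the 9 genes (0.00952% of all genes), with 0 at an unadjusted p under 0.05 and 0 by edgeR or DESeq2, and Alas2 differed by -0.07 ± 0.24 (SE, limma, adjusted p = 0.978). In D06 mice 5 of the 9 were higher than in control mice (7.27% of all genes were called higher), Alas2 by 1.04 ± 0.27 (SE, limma, adjusted p = 0.0102), Urod by 1.39 ± 0.27 (SE, limma, adjusted p = 0.00180), Fech by 1.19 ± 0.29 (SE, limma, adjusted p = 0.00747), Alad by 0.79 ± 0.18 (SE, limma, adjusted p = 0.00580) and Uros by 0.66 ± 0.13 (SE, limma, adjusted p = 0.00182). Without D06 mouse 5, 5 were still called. By edgeR and DESeq2 6 were called, with Slc25a38 added. Of all 10501 genes, edgeR called 844 higher and DESeq2 922. Of the 14 red cell precursor and reticulocyte markers, 13 were also called higher in D06 than in control mice (median 1.26 on the log2 scale), as were 6 of 8 platelet markers. With values scaled by library totals, 13 of these 14, 1 of these 8 and 4 of the 9 heme genes were called higher. On that scaling 1 heme gene was lower, while 291 of all 10501 genes were higher and 6748 lower. The part of these markers in the result was not tested. In D11 mice limma called 0 (0.0761% of all genes), with 6 at an unadjusted p under 0.05, 0 by edgeR and 1, Alad, by DESeq2. In BPR21 mice limma called 0 (0.504% of all genes), with 6 at an unadjusted p under 0.05 and 0 by edgeR or DESeq2. Of all 10508 genes, 799, 1697 and 2095 had an unadjusted p under 0.05 (limma) in E07, D11 and BPR21 against control mice. Of all 10501 genes, edgeR called 1, 10 and 187 in these comparisons, and DESeq2 20, 174 and 521. Control mouse 12 had the highest Alas2 vst value of its group, 20.18, and the lowest size factor, 0.732. Its Alas2 share of all counts, 6.36%, was not the highest of the control mice, which was 7.36%. Without that mouse, 2 genes passed in D11 mice, Alad and Uros, and 2 in BPR21 mice, Alas2 and Fech.

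The treated groups were set against each other directly. E07 mice were lower than D06 mice in 5 of the 9 genes, Alas2, Alad, Uros, Urod and Fech (8.42% of all genes were called lower), with Alas2 at -1.11 ± 0.21 (SE, limma, adjusted p = 3.62e-04). They were lower than BPR21 mice in 3, Alas2, Urod and Fech (5.69% of all genes), with Alas2 at -0.85 ± 0.21 (SE, limma, adjusted p = 0.0185). Against D11 mice limma called 0 (4.57% of all genes), with 5 at an unadjusted p under 0.05, and edgeR and DESeq2 each called 3, Alas2, Urod and Fech. Of all 10508 genes, 2192 had an unadjusted p under 0.05 there (limma). Of all 10501 genes, edgeR called 708 and DESeq2 845. The Alas2 difference of E07 from D11 mice was -0.71 ± 0.23 (SE, limma, adjusted p = 0.0666). It passed without E07 mouse 3 or 6 or D11 mouse 1, 7 or 11. Without E07 mouse 6 or any of these 3 D11 mice, 3 of the 9 passed, and 1, Urod, passed without E07 mouse 12. Among D11, D06 and BPR21 mice limma called 0 of the 9 in each pair, as did edgeR and DESeq2. All genes called made up 0.0% for D11 against D06, 0.0% for D11 against BPR21 and 0.0571% for D06 against BPR21. Of the 9 genes, 2, 0 and 2 had an unadjusted p under 0.05 in these pairs, as had 655, 621 and 939 of all 10508 genes (limma). Over all genes, edgeR called 0, 0 and 7 in these pairs, and DESeq2 0, 2 and 38.

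The share of a library taken by 1 gene is scaled by the library total and uses no size factor. Alas2 took 5.05% ± 1.59 of all counts in control mice (SD, n = 11) and 7.96% ± 1.65 in HOCl mice (SD, n = 12, with mouse 8), and all 12 HOCl mice were above the control median (permutation test, two-sided, adjusted p = 0.00260 over 30 tests). In E07 mice the share was 4.74% ± 1.08 (SD, n = 12), and all 12 were below the HOCl median (permutation test, adjusted p = 0.00180). The share was 5.98% ± 1.81 in D11, 6.79% ± 1.82 in D06 and 6.33% ± 1.28 in BPR21 mice (SD, n = 12 each). Those of D11 and BPR21 passed against HOCl mice (permutation test, adjusted p = 0.0376 and 0.0399), and that of D06 did not (permutation test, adjusted p = 0.176). In D11 mice 10 of 12 were below the HOCl median, and in BPR21 mice 10 of 12. Without HOCl mouse 7, the mouse with the highest share, these adjusted p values of the permutation test were 0.0648 and 0.0739. The D11 difference also failed without HOCl mouse 4, 5 or 8 or D11 mouse 1, 6, 7 or 11, and the BPR21 difference without HOCl mouse 3, 4, 5, 6, 8 or 10 or BPR21 mouse 1, 2, 4, 5, 6, 7 or 10. A share also moves with the counts of every other gene.

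**Figure D3:**
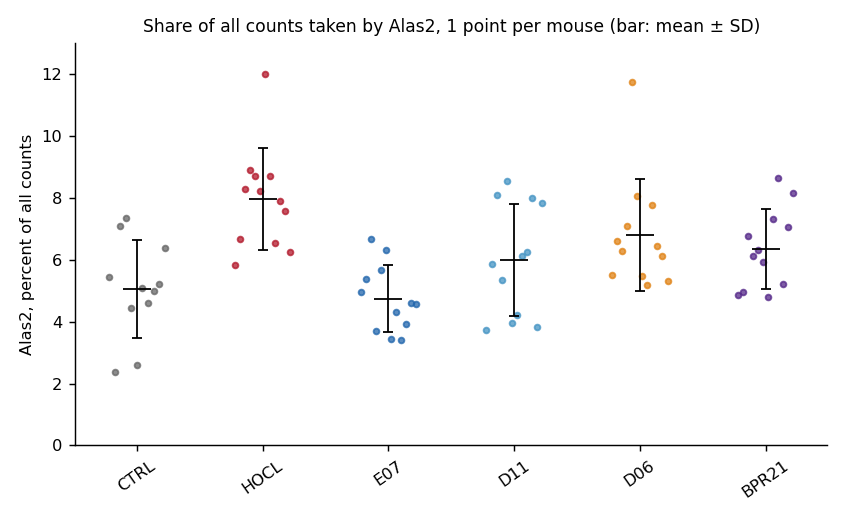
Alas2 counts as a percent of all counts of a library (y axis) in each mouse by group (x axis), with mean and SD, 11 control mice and 12 in each other group. The highest mouse is an HOCl mouse at 12.0%, and every E07 mouse is at most 6.65%.

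Count ratios within a mouse compare the genes of the pathway with each other. The log2 ratio of Alas2 to Alas1 counts was 11.58 ± 0.92 in control mice (SD, n = 11), 12.86 ± 0.76 in HOCl mice and 11.55 ± 0.55 in E07 mice (SD, n = 12 each). All 12 HOCl mice were above the control median (permutation test, adjusted p = 0.0118), and 11 of 12 E07 mice were below the HOCl median (permutation test, adjusted p = 0.00210). The ratio needs no scaling between libraries. In the 4 treated groups the mean log2 ratio of Fech to Alas2 was 0.01 to 0.16 above that of HOCl mice, and 0 of these differences passed. The Fech to Alas2 ratio was -3.06 ± 0.23 in HOCl mice (SD, n = 12) and -3.06 ± 0.19 in control mice (SD, n = 11; permutation test, adjusted p = 0.959). For Urod to Alas2 the ratio was 0.42 higher in HOCl than in control mice, which did not pass (permutation test, adjusted p = 0.0762). The Alad to Alas2 ratio was 0.63 higher in E07 than in HOCl mice, above the HOCl median in 12 of 12 mice (permutation test, adjusted p = 0.00345).

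**Figure D4:**
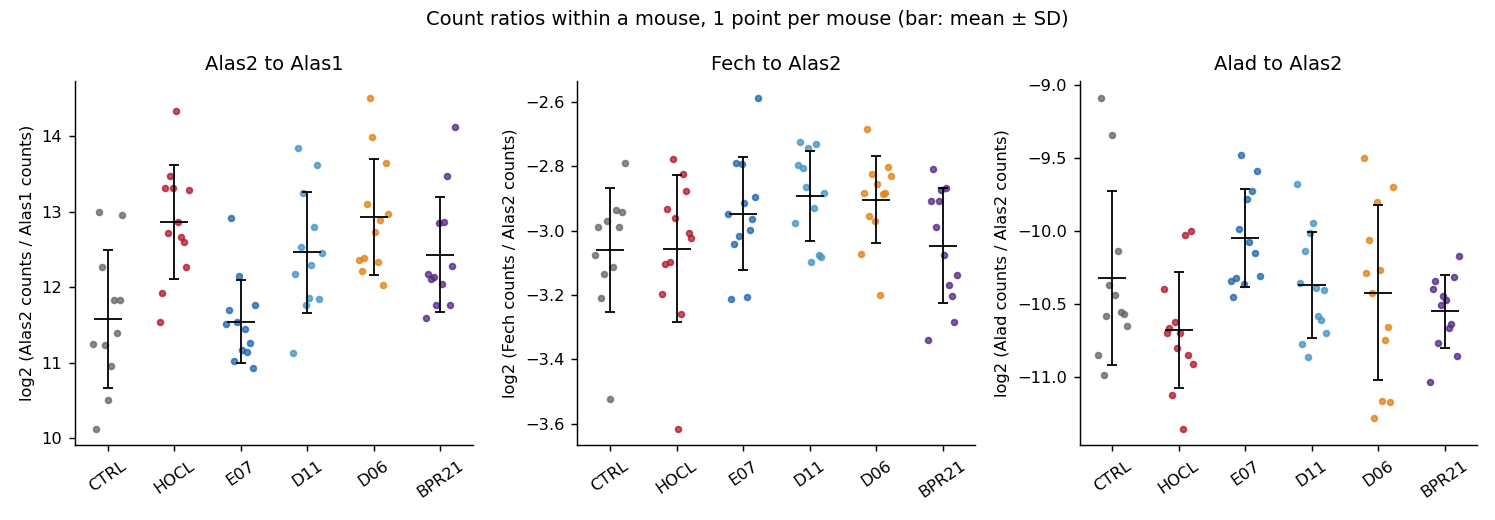
Log2 ratios of raw counts within a mouse (y axes) for Alas2 to Alas1, Fech to Alas2 and Alad to Alas2, by group (x axis), with mean and SD, 11 control mice and 12 in each other group. The first ratio averages 12.86 in HOCl and 11.55 in E07 mice, and the second lies near -3 in every group.

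Alas2 and Fech rose and fell together over mice. Over the 70 mice with vst values Pearson's r was 0.98 between them, 0.97 with group means taken off, and 0.92 between Alas2 and Urod. Over the 28 pairs of the 8 genes other than Alas1, r ran from 0.42 to 0.98 with a median of 0.67. Pairs with Alas1 had r from -0.19 to -0.05. These are descriptions over mice that share groups and library scaling. The 5 genes outside the pathway most like Alas2 were Sh3glb1, Riok3, Ube2l6, Ube2r2 and Aldh1a1, each with r of 0.98 when rounded over 70 mice. For Alas1 they were Zdhhc23, Mfsd7a, Zfp608, Synrg and R3hcc1l, with r of at most 0.46. For the mean of the 9 z-scored genes, Metap2, Pabpc4, Eef1d and Kel were among the most alike, with r from 0.94 to 0.95.

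Of 9 tested genes of heme and porphyrin transport, from a list of 11, 3 rose in HOCl mice (4.79% of all genes). In E07 mice the same 3 fell (7.01% of all genes). These were the mitochondrial glutathione carrier Slc25a39 (1.09 and -1.10 on the log2 scale), the heme transporter Slc48a1 (1.02 and -1.04) and the heme-binding protein Hebp1 (1.00 and -1.11). Their list had medians of 0.31 and -0.24, and of 0.02 and 0.14 on total-count scaling. On that scaling 3 of its genes were called higher and 1 lower in HOCl mice, and 2 higher and 3 lower in E07 mice. Of all 10501 genes, 317 were called higher and 5141 lower in HOCl mice on that scaling. In E07 mice 6472 were higher and 310 lower.

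Of 7 tested genes of mitochondrial iron import and iron-sulfur clusters, from a list of 8, 4 rose in HOCl mice (4.79% of all genes). In E07 mice 4 fell (7.01% of all genes), and the medians were 1.05 and -0.99. On total-count scaling the medians were 0.54 and -0.55, with 4 genes higher and 2 lower in HOCl mice and 2 higher and 4 lower in E07 mice. On vst values those called were the iron importer mitoferrin-1, Slc25a37 (1.23 and -0.99 on the log2 scale), and the cluster assembly genes Glrx5 (1.36 and -1.46), Iscu (1.27 and -1.30) and Isca1 (1.05 and -1.12). Of 9 genes that control heme synthesis, 4 rose and 5 fell, with medians of 0.25 and -0.40 (-0.23 and 0.07 on total-count scaling). Both times these held the erythroid transcription factors Klf1 (0.80 and -0.72) and Nfe2 (0.61 and -0.72), the heme-regulated kinase Eif2ak1 (0.83 and -0.82) and Fam210b (1.23 and -1.38). Gata1 was lower in E07 mice by -0.40 ± 0.11 (SE, limma, adjusted p = 0.0134). Of 4 genes of heme breakdown, 1 rose and fell, the biliverdin reductase Blvrb (1.62 and -1.67), with medians of 0.10 and -0.18 (-0.26 and 0.17 on total-count scaling). On total-count scaling, where all genes shifted, the control list had 3 genes higher and 4 lower in HOCl mice and 2 higher and 2 lower in E07 mice. The breakdown list had 1 higher and 0 lower in HOCl mice, and 2 higher and 1 lower in E07 mice. Of all 10501 genes, that scaling called 317 higher and 5141 lower in HOCl mice, and 6472 higher and 310 lower in E07 mice. In D11, D06 and BPR21 mice 0 genes of these 4 lists were called against HOCl mice by limma or edgeR.

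Markers of blood cell types moved too. Of 14 red cell precursor and reticulocyte markers that are not heme genes, 13 rose in HOCl mice (4.79% of all genes). In E07 mice 13 of these markers fell (7.01% of all genes), and the medians were 1.43 and -1.47 on the log2 scale. Their summed level ran from 655 to 4342 CPM in control, 2014 to 9511 in HOCl and 967 to 3091 in E07 mice. It ran from 1333 to 5600 CPM in D11, 1740 to 8205 in D06 and 895 to 4788 in BPR21 mice, and 0 of the 14 were at 0 in any group. The exception in both comparisons was the blood group adhesion molecule Icam4, at 0.34 ± 0.23 and -0.41 ± 0.23 (SE, limma, adjusted p = 0.477 and 0.240). Over 70 mice their mean score had r of 0.98 with Urod, 0.93 with Alas2 and 0.93 with Fech. With that score in the limma fit, 0 of the 9 genes passed in HOCl against control mice (0.00952% of all genes) and 0 in E07 against HOCl mice (0.00952% of all genes). In these fits Alas2 differed by -0.03 ± 0.17 and -0.24 ± 0.17 (SE). The log2 ratio of Alas2 to the summed markers was lower in HOCl than in control mice, 4.11 against 4.65 (permutation test, adjusted p = 0.0273), and higher in E07 than in HOCl mice, 4.74 against 4.11 (permutation test, adjusted p = 0.0235). The marker score comes from RNA of the same libraries, and 13 of its 14 genes were called in each comparison. A fit with this score therefore does not measure red cell numbers, and their part in the differences was not tested.

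Proliferating cell markers rose in 4 of 4 tested in HOCl mice (4.79% of all genes) and fell in 4 of 4 in E07 mice (7.01% of all genes). On total-count scaling these counts were 3 and 3. Of 8 tested platelet markers 5 rose and 8 fell, and 0 and 0 did on total-count scaling. Of the 8 neutrophil, 6 monocyte, 4 eosinophil, 6 B cell, 6 T cell and 5 NK cell markers 0 were called in HOCl against control mice, by limma or edgeR, while on total-count scaling 3 monocyte, 5 B cell, 6 T cell and 5 NK cell markers were lower. On that scaling 5141 of all 10501 genes were called lower in HOCl against control mice. In E07 against HOCl mice 5 B cell and 2 eosinophil markers were higher, and 1 neutrophil and 1 monocyte marker were lower, while on total-count scaling 1 of each of these lists was higher and 0 lower. On that scaling 6 of 6 T cell, 5 of 5 NK cell, 5 B cell and 3 eosinophil markers were higher in E07 than in HOCl mice, against 0 T cell and 0 NK cell markers on vst values. Of all 10501 genes, 6472 were called higher in E07 than in HOCl mice on total-count scaling. Globin counts were depleted in the libraries, and 0 of 4 globin genes were called in either comparison by limma or edgeR. The part of these cells in the heme gene differences was not tested.

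The values were also compared on another scaling of the libraries, which moved all genes together. DESeq2 size factors averaged 1.29 in control, 0.938 in HOCl and 1.28 in E07 mice at similar total counts. With values as log2(CPM + 1) of the total counts instead, the median of all genes moved to -0.46 in HOCl against control mice and to 0.49 in E07 against HOCl mice, and 52.0% and 64.6% of all genes were called. On that scaling Alas2 (0.71 and -0.75), Urod (1.12 and -1.16) and Fech (0.71 and -0.65) were called in the same directions as on vst values. Alas1 was then called in the opposite direction to them (-0.53 and 0.51), close to the median of all genes, and Slc25a38 was called higher in E07 mice (0.42). The median over the 9 genes was 0.19 and 0.02. Alad (0.34 and -0.12), Uros (0.19 and 0.04), Ppox (0.03 and 0.05) and Cpox (-0.07 and 0.02) were not called.

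**Figure D5:**
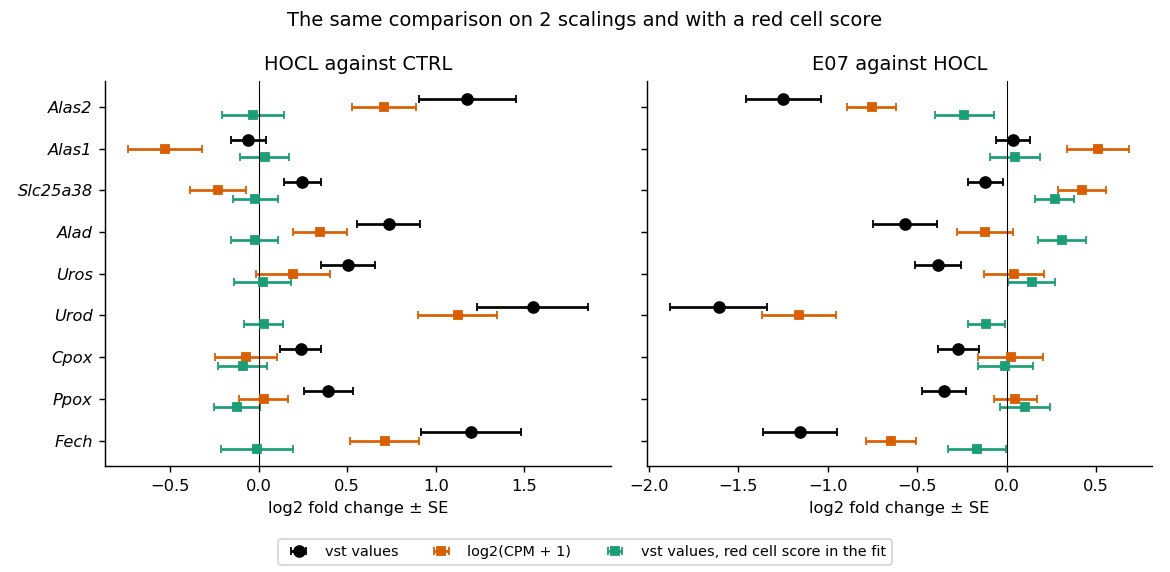
Log2 fold changes with SE (x axis) of the 9 genes (y axis) in HOCl against control and E07 against HOCl mice, from vst values (black circles), from log2(CPM + 1) on total counts (orange squares) and from vst values with the red cell marker score in the fit (green squares). Alas2, Urod and Fech keep their direction on both scalings, and with the score in the fit 0 genes passed.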

How the data were processed

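Whole blood RNA of 71 mice was analysed. The authors trimmed reads with Cutadapt, aligned them to mm39 with STAR and deposited raw counts per gene from FeatureCount. Versions of these tools, the annotation release and the strand setting are not given in the sources used here. They also deposited values on a log2 scale from the vst function of DESeq2, for 10508 protein-coding genes above a low-expression filter and 70 mice. Columns without a sample numbered 0.

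The 9 members and all lists were chosen with earlier results of these data known. The genes named were the 9 members, the listed genes called in HOCl against control or E07 against HOCl mice, and the 5 genes most correlated with Alas2, with Alas1 and with the members' mean. Some genes that this rule names are not reported here. The vst values were compared by limma 3.58.1 in R 4.3.3, 2 groups per fit, with Benjamini-Hochberg adjustment over all genes. Counts were tested with edgeR 4.0.16 (quasi-likelihood) and DESeq2 1.42.0 on the 10501 vst genes matched by symbol, 7 being unmatched. CPM used the total count, with a pseudocount of 1. Ratios and shares were tested by permutation with 100000 resamples, two-sided, adjusted over 30 tests, and were chosen after seeing the data, as was the DESeq2 fit with size factors from genes outside the red cell markers and members. Each test across genes was tried on simulated data. Libraries held 11932855 to 15948972 counts, so genes with few counts are measured less precisely. Errors given are the SD or SE over mice. Labels name separate mice, so p-values measure the spread between animals. Promoter windows came from RefSeq (GRCm38.p6). The alternatives are listed with their effect at the end.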

Additional observations from a re-analysis of the deposited data

Results flagged for a closer look

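HOCl mouse 8 entered the shares and ratios of counts but had no vst values, so its levels were outside the main comparisons. Its Alas2 level was 87074 CPM, above the highest control mouse at 73563 CPM and within the other HOCl mice, which ran from 58124 to 119845 CPM. Its Ppox level was 42.6 CPM, above the highest control mouse at 40.2 CPM and within the other HOCl mice, which ran from 24.8 to 47.1 CPM. The other 7 members of that mouse were not above every control mouse. Outlying samples were not searched for within groups, which hold more than 10 mice each.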

How the results depend on the processing

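Leaving out each mouse in turn, limma called 4 to 6 of the 9 genes in HOCl against control mice, 3 to 6 in E07 against HOCl, 5 to 6 in D06 against control, 0 to 2 in D11 against control, 0 to 2 in BPR21 against control and 0 to 3 in E07 against D11 mice. The 3 in E07 against HOCl mice came without HOCl mouse 11 or E07 mouse 7, 9 or 10. In D11, D06 and BPR21 against HOCl mice and in E07 against control mice each such fit called 0. With all mice, 521, 829, 828, 8, 53 and 480 of all 10508 genes were called in the first comparisons, in the order given. In the comparisons with 0 they were 6, 14, 67 and 1. Counts over all genes in fits that left out 1 mouse, here and above, are not given. Whether the 9 genes moved with all genes in those fits was not tested.

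With the red cell marker score in the fit, 0 were called in HOCl against control, E07 against HOCl and D06 against control mice. Of all 10508 genes, that setting called 1, 1 and 3. With all 6 groups in 1 fit, 3 were called in E07 against HOCl mice (681 of all 10508 genes). In that fit 0 neighbouring pairs were told apart. In D11 against control mice DESeq2 called 1 (174 of all 10501 genes), also with size factors from genes outside the markers and members (174). In E07 against D11 mice 3 were called by edgeR, 3 by DESeq2, 3 by DESeq2 with those size factors, 3 by edgeR on genes with at least 10 counts, 2 by edgeR without a filter and 1 on total-count scaling. Over all genes those settings called 708 of 10501 by edgeR, 845 of 10501 by DESeq2 with either size factors, 764 of 15211 and 1074 of 29569 by edgeR with the other filters, and 4664 of 10501 on total-count scaling. When mouse numbers entered as a replicate block, 0 were called in HOCl against control, 2 in BPR21 against control, 3 in E07 against D11 and 4 in E07 against HOCl mice. Of all 10508 genes, that setting called 85, 534, 557 and 799 in these comparisons. The mouse numbers name different animals. Deviations of same-numbered mice correlated over 0.1 in 4 of 10 pairs in HOCl against control and 3 of 11 in E07 against HOCl mice. They did so in 7 of 11 pairs in E07 against control and 5 of 11 in D11 against control mice. In every comparison checked, mean r was higher for same-numbered than for other mice. The highest was 0.146 against -0.00971, in E07 against control mice. Because they name different animals, the mouse numbers were not taken as pairing. What same-numbered mice share was not tested.

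Signs changed as follows, in log2 fold changes. Several values are near 0 and their SE is not given here, so a changed sign alone does not show a reversal. With the red cell score they were Alas1 0.0341, Alas2 -0.0307, Alad -0.0232, Cpox -0.0915, Ppox -0.12, Fech -0.0102 and Slc25a38 -0.0185 in HOCl against control mice, and Alad 0.31, Uros 0.14, Ppox 0.10 and Slc25a38 0.27 in E07 against HOCl mice. In D11 against HOCl mice they were Alas2 0.0311, Alad 0.13, Uros 0.12, Cpox 0.0099, Ppox 0.089, Fech 0.17 and Slc25a38 0.0347, and in BPR21 against HOCl mice Alas1 -0.006, Alas2 0.0928, Alad 0.18, Uros 0.0192, Cpox 0.006 and Fech 0.0692. On total-count scaling they were Cpox -0.0694 and Slc25a38 -0.23 in HOCl against control mice, Uros 0.0401, Cpox 0.0223, Ppox 0.0498 and Slc25a38 0.42 in E07 against HOCl mice and Uros 0.0238 and Slc25a38 0.0618 in D11 against HOCl mice. Fech in D06 against HOCl mice, near 0 on vst values, was 0.11 by edgeR, 0.12 by DESeq2, 0.0034 with each mouse centred on its median and 0.0915 with the red cell score. The cause was not tested. Over all genes, 521 were called in HOCl against control mice, 5458 on total-count scaling, 85 with the block and 1 with the score. In E07 against HOCl mice 829 were called, 1580 without a minimum fold, 1261 by DESeq2, 1264 with its other size factors, 2108 by edgeR without a filter, 6782 on total-count scaling and 1 with the score.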
